A study of Mus musculus with 6 samples.

Results

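Corticosteroid signalling was followed here through 8 genes: the 2 receptor genes Nr3c1 and Nr3c2, the hormone-activating enzyme gene Hsd11b1, and the target genes Zbtb16, Sgk1, Fkbp5, Tsc22d3 and Errfi1. They were looked up by symbol among the 54532 genes of the deposited count table, and all 8 were found and were among the 16909 genes tested. The tissue was spinal cord of C57BL/6J mice after a spinal cord injury (SCI), sequenced as total RNA. The injury was common to both groups: 3 libraries came from mice given rotarod training (SCIT), in which the animal walks on a turning rod, and 3 from injured mice left untrained (SCI). All 6 libraries carried the label of day 28, counted from training. The labels give neither the age of the mice nor the level and kind of injury, and do not tie a library to its own animal. The p-values therefore describe the spread among these 6 samples, part of which may be technical.

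Corticosterone, the main glucocorticoid of mice, enters cells and binds the glucocorticoid receptor, which waits in the cytoplasm in a complex with heat shock proteins. The bound receptor moves to the nucleus, where it attaches as a dimer to glucocorticoid response elements (GREs), short inverted repeats in DNA, and raises transcription of some genes, or lowers that of others through contact with other factors. The mineralocorticoid receptor recognises the same elements and binds corticosterone with higher affinity. Glucocorticoids restrain inflammation in the nervous system, and several of their target genes are also induced by other stimuli.

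The comparison asks whether rotarod training went with another level of the receptors and their targets in injured cord. Of the 8 genes 1 fell in trained cord, Zbtb16, and 7 did not pass the test at an adjusted p of 0.05. Over all genes tested 0.0591% passed, 0.0532% lower and 0.00591% higher. An unadjusted p below 0.05 with a lower level in trained cord was found in 5 of the 8 and in 5.55% of all genes. The log2 fold change (trained over untrained) was negative in 8 of 8, against 52.0% of all genes tested, with a median of -0.29 over the 8 and of -0.0080 over all genes. In 5 of the 8 every trained library lay below every untrained one, which held for 8.69% of all genes tested, while 0 of the 8 lay wholly above, against 8.13% of all genes. These 5 were Nr3c1, Zbtb16, Sgk1, Fkbp5 and Errfi1. The 8 genes, and the lists below, were chosen with earlier results of these data known. Their counts beside the shares of all genes are therefore descriptions and do not test them as a set. In bulk tissue, fewer cells of a type and less RNA per cell cannot be told apart.

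The promoters show which of the genes carry the letters of a response element close to a start of transcription. RefSeq promoters of the GRCm38.p6 build, 250 bases before to 50 after a start, were found for 6 of the 8 genes, 14 in all; Zbtb16 and Nr3c1 had no match by symbol. Both strands were searched for the full GRE palindrome (AGAACA, 3 bases of any kind, TGTTCT), for a looser core inside it (GNACA, 3 bases of any kind, TGTNC), and for TGACGTCA, the cyclic AMP response element (CRE) bound by CREB. The full palindrome occurred in 1 of the 14, a promoter of Sgk1, and in 0.00913% of all 32851 promoters, 3 in number. The core was found at the same place in Sgk1 and in no other of the 14, against 0.475% of all promoters. The CRE was found in 1 of the 14, a promoter of Errfi1, against 1.79% of all promoters. A match is a description of the letters and not evidence of binding, and response elements are often distant from promoters.

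The first of 2 Sgk1 promoters is shown for the palindrome, with its 15 bases in capitals beginning at position -189 from the start (chr10:21993640-21993939, plus strand). The second is the last of the 6 Sgk1 promoters along the strand and holds none of the 3 motifs (chr10:21994416-21994715, plus strand). That of Errfi1 is shown for its CRE in capitals, beginning at position -51 from the start (chr4:150854820-150855119, plus strand). The promoter of Fkbp5, a target with none of the motifs in this window, is shown for comparison (chr17:28486100-28486399, minus strand). All are written 5′ to 3′.
Sgk1, promoter with the palindrome: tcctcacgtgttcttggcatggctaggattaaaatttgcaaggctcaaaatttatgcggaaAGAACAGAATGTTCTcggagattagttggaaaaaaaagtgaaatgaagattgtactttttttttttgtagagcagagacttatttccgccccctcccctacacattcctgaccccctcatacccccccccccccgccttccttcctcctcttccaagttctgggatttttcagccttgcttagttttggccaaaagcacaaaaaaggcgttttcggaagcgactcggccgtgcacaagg
Sgk1, last promoter: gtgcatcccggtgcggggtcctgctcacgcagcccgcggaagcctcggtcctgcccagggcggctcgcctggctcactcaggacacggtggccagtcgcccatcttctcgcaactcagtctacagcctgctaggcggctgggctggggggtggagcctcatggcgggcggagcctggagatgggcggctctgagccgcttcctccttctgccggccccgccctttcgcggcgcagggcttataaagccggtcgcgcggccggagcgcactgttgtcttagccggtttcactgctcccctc
Errfi1: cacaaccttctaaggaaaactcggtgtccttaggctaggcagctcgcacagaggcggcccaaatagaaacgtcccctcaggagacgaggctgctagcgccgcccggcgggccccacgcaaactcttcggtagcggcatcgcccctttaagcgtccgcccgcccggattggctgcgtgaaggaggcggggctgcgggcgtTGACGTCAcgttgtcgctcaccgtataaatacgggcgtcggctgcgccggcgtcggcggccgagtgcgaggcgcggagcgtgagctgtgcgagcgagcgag
Fkbp5: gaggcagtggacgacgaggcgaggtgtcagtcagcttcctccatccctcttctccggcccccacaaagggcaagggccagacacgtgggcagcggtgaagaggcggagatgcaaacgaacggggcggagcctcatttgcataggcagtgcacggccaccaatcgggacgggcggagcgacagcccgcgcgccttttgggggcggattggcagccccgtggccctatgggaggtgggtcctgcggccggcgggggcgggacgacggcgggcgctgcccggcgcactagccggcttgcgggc

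The libraries held 26092014, 16254344 and 15814104 counts in trained replicates 1, 2 and 3, and 18081949, 16763602 and 15947347 in the untrained ones. Values are CPM, counts as a share of the library total after scaling, and 3 counts, used as the floor, correspond to 0.116 to 0.192 CPM. Defining markers of neurons, astrocytes, oligodendrocytes and microglia were present in every library. Trained replicate 1 stood apart in its Schwann cell markers: the summed CPM of 4 of them was 126, 1248 and 702 in trained replicates 1 to 3, against 1017, 1136 and 739 in the untrained ones. It was also lowest in the sum of 5 fibroblast and meningeal markers, at 102 CPM, against 548 and 613 CPM in the other trained libraries and 292 to 524 CPM in the untrained ones. The summed CPM of 7 endothelial markers was 502 to 546 in trained and 584 to 715 in untrained cord, and that of 6 neutrophil markers 30.6 to 64.3 and 14.6 to 22.1. The sum of 5 red blood cell markers was 61.1 to 145 CPM in trained and 36.6 to 67.8 CPM in untrained libraries. The part of these differences in the results below was not tested.

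Nr3c1 encodes the glucocorticoid receptor itself (ENSMUSG00000024431, chromosome 18, 39410545 to 39491301 as the table gives it, minus strand). It was at 81.4, 84.4 and 80.1 CPM in trained cord and at 102, 99.9 and 95.6 CPM in untrained cord. The groups did not overlap, and the libraries within each lay close together, with means of 81.9 ± 2.20 and 99.2 ± 3.31 CPM (SD, n = 3 each). Trained over untrained, the log2 fold change was -0.28 ± 0.07 (SE), a level 17.4% lower in trained cord. With an adjusted p of 0.218 in edgeR's quasi-likelihood test it did not pass over all genes, and its 95% interval, unadjusted, ran from -0.42 to -0.13.

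Nr3c2, the mineralocorticoid receptor gene (ENSMUSG00000031618, chromosome 8, 76899442 to 77245012, plus strand), was at 34.7, 33.2 and 31.96 CPM in trained cord and at 34.5, 36.3 and 41.2 CPM in untrained cord. Trained replicate 1 lay just above the lowest untrained library, so the groups overlapped. Between them the log2 fold change was -0.16 ± 0.09, with a 95% interval of -0.36 to 0.03 and an edgeR adjusted p of 0.554. A long noncoding RNA gene on the other strand, Gm10649, overlaps Nr3c2 and had counts equal to 4.36% of those of Nr3c2, which cannot be told apart in full if reads were counted without strand. Per kilobase of gene length, the level of Nr3c1 was 2.15 ± 0.09 times that of Nr3c2 in trained and 2.34 ± 0.29 times in untrained cord (SD, n = 3 each), and these ranges overlapped.

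Hsd11b1 encodes the enzyme that regenerates active corticosterone from its inactive form inside cells (ENSMUSG00000016194, chromosome 1, 193221634 to 193264075, minus strand). Its level was 27.2, 21.2 and 21.04 CPM in trained cord and 22.9, 31.8 and 32.01 CPM in untrained cord. Replicate 1 of each group went against the rest of its group: the trained one was the highest of 3 and the untrained one the lowest. The log2 fold change was -0.31 ± 0.15 (edgeR adjusted p = 0.518), and the 95% interval of -0.64 to 0.01 included 0. The span of Hsd11b1 overlaps Lamb3 on the other strand, a laminin subunit gene with counts equal to 7.05% of its own.

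Zbtb16, also called PLZF, a zinc finger transcription factor gene that glucocorticoids induce strongly in many tissues (ENSMUSG00000066687, chromosome 9, 48654297 to 48836222, minus strand), was the gene that fell. It had 6.66, 6.30 and 6.58 CPM in the trained libraries, against 14.97, 15.8 and 18.1 CPM in the untrained ones. The 3 trained values lay within 1.06-fold of each other, and the lowest untrained value was 2.25 times the highest trained one. The level in trained cord was 2.49-fold lower, at a log2 fold change of -1.32 ± 0.13 (95% interval -1.61 to -1.03, edgeR adjusted p = 0.00141). It passed under 13 of 13 other settings, including each fit without 1 library, with log2 fold changes of -1.37 to -1.24 and adjusted p-values of at most 0.0242. No other gene of the table overlaps it.

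Sgk1, the serum- and glucocorticoid-regulated kinase gene (ENSMUSG00000019970, chromosome 10, 21882184 to 21999903, plus strand), had a difference of similar size but more spread. Its values were 67.6, 79.8 and 87.2 CPM in trained cord and 245, 147 and 164 CPM in untrained cord. The groups stood apart by 1.68-fold at their nearest libraries, and untrained replicate 1 lay well above the other untrained libraries. The level was 2.37-fold lower in trained cord, at a log2 fold change of -1.25 ± 0.23 (95% interval -1.84 to -0.66), and did not pass over all genes in edgeR (adjusted p = 0.268). Without untrained replicate 1 the log2 fold change was -0.98 and passed (edgeR adjusted p = 0.00253), as it did in DESeq2 on all 6 libraries (adjusted p = 0.00118). In the other 11 settings Sgk1 did not pass, and the adjusted p reached 0.609 with the replicate number as a block. The counts are summed over the gene, so they do not show which of its promoters was used.

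Fkbp5 encodes an immunophilin cochaperone that binds the receptor complex and lowers its affinity for hormone, so that its induction by glucocorticoids feeds back on the receptor (ENSMUSG00000024222, chromosome 17, 28399094 to 28517527, minus strand). It was at 25.4, 30.0 and 26.9 CPM in trained cord and at 33.4, 33.2 and 31.3 CPM in untrained cord. The groups did not overlap, although trained replicate 2 came within 1.04-fold of the lowest untrained library. The log2 fold change was -0.25 ± 0.09, with a 95% interval of -0.45 to -0.05, and did not pass (edgeR adjusted p = 0.380).

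Tsc22d3, which encodes the glucocorticoid-induced leucine zipper protein GILZ, a mediator of anti-inflammatory action (ENSMUSG00000031431, chromosome X, 140539528 to 140600659, minus strand), showed groups that overlapped. It had 155, 164 and 136 CPM in trained cord and 178, 153 and 184 CPM in untrained cord. Trained replicates 1 and 2 lay above untrained replicate 2. Their log2 fold change was -0.18 ± 0.09, with a 95% interval of -0.37 to 0.02 and an edgeR adjusted p of 0.534.

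Errfi1 encodes an inhibitor of the EGF receptor family that is induced by glucocorticoids and by growth factors (ENSMUSG00000028967, chromosome 4, 150853919 to 150868892, plus strand). Its level was 69.8, 72.8 and 77.8 CPM in trained cord and 99.0, 89.9 and 85.6 CPM in untrained cord. The groups did not overlap, and the nearest libraries differed 1.10-fold. The log2 fold change was -0.32 ± 0.08 (95% interval -0.48 to -0.15) and did not pass over all genes (edgeR adjusted p = 0.218). It passed in edgeR without trained replicate 3 (-0.34, adjusted p = 0.0486) and with no filter on low counts (-0.31, adjusted p = 0.0262), while over the 13 other settings the adjusted p ran up to 0.586.

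**Figure D1:**
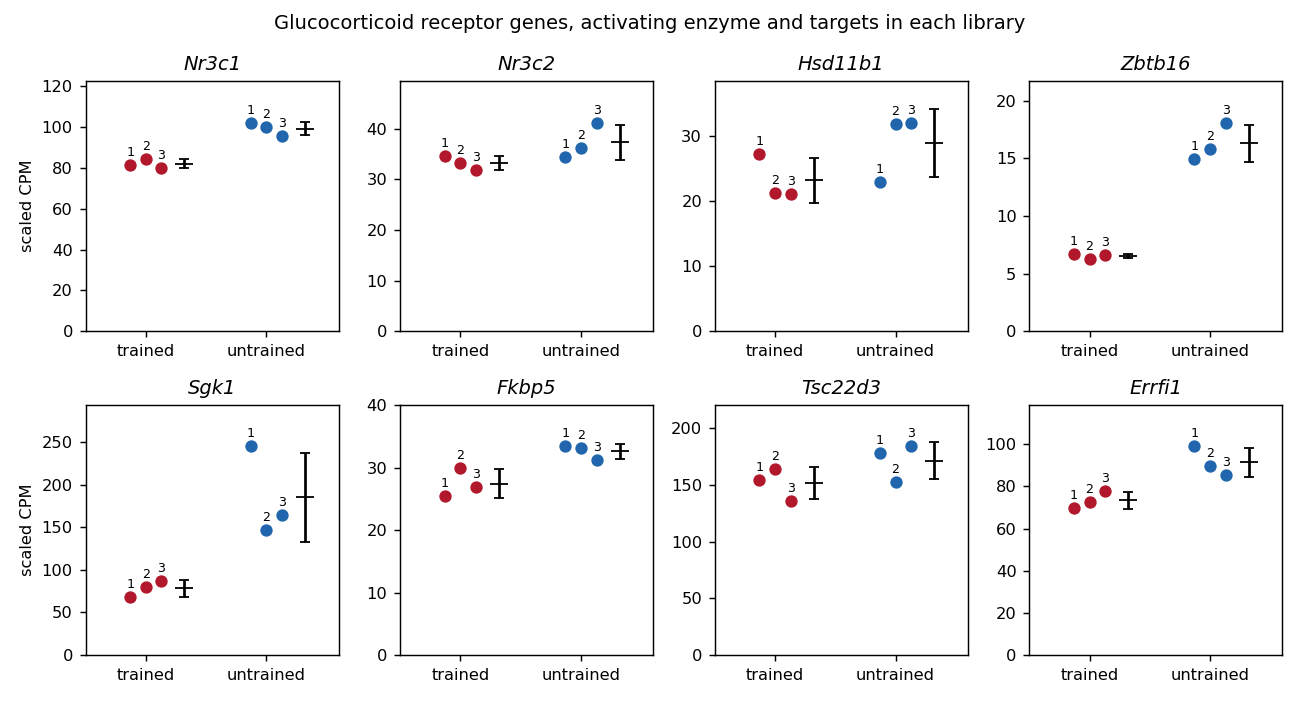
Scaled CPM of each of the 8 genes in each library, with points numbered by replicate, trained left of untrained, and bars for the mean ± SD of 3 libraries. Zbtb16 lies at 6.30 to 6.66 CPM in trained and 14.97 to 18.1 CPM in untrained cord, and Nr3c2, Hsd11b1 and Tsc22d3 overlap between the groups.

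**Figure D2:**
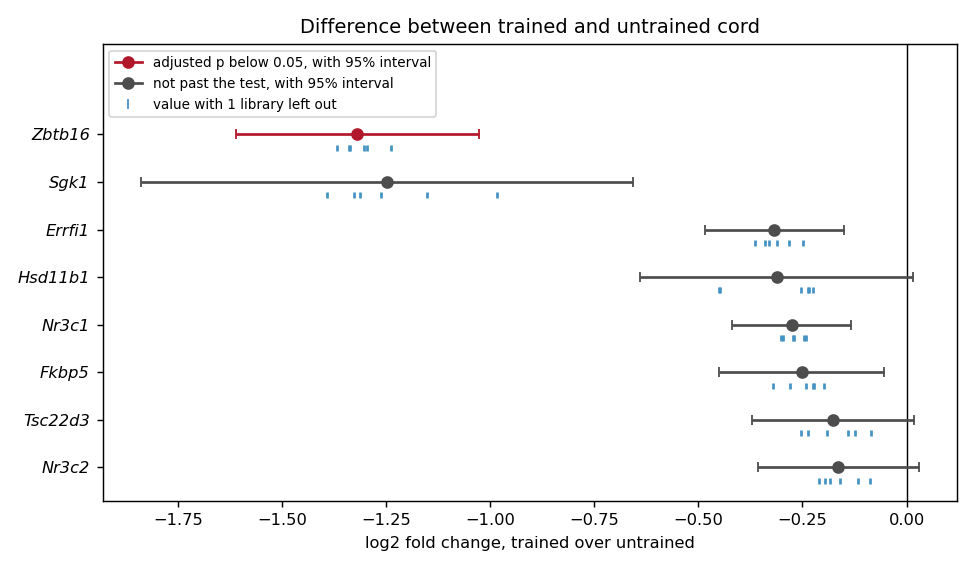
Log2 fold change (trained over untrained) of each gene with its 95% interval from edgeR, and ticks below it for the value with 1 library left out. All points lie left of 0, Zbtb16 is the gene past the test, and the ticks of Sgk1 run from -1.39 to -0.98.

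Set side by side as ratios of trained over untrained level, Zbtb16 was at 0.401 and Sgk1 at 0.421, while Errfi1 was at 0.802, Fkbp5 at 0.840 and Tsc22d3 at 0.885. Among the receptors and the enzyme the ratio was 0.826 for Nr3c1, 0.893 for Nr3c2 and 0.805 for Hsd11b1. Across the 8 genes the highest of the 6 values belonged to untrained replicate 1 in 4 genes (Nr3c1, Sgk1, Fkbp5 and Errfi1) and to untrained replicate 3 in the other 4. The lowest value belonged to trained replicate 1 in 3 genes, trained replicate 2 in 1 and trained replicate 3 in 4. The libraries that were extreme thus differed from gene to gene within each group.

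The levels of the genes were compared per kilobase of the gene length that the table gives. Tsc22d3 was the highest, at 35.0 ± 3.28 CPM per kb in trained and 39.5 ± 3.84 in untrained cord. In trained cord Errfi1 came next at 20.5 ± 1.12 CPM per kb and Sgk1 after it at 16.0 ± 2.01, whereas in untrained cord Sgk1 was at 37.8 ± 10.7 and Errfi1 at 25.5 ± 1.91. The values of Sgk1 in untrained cord, 29.9 to 49.99 CPM per kb, spanned those of Tsc22d3 there, 35.2 to 42.4, so these neighbours did not differ beyond their spread. Nr3c1 lay at 11.04 ± 0.30 and 13.4 ± 0.45 CPM per kb in trained and untrained cord. Hsd11b1 at 5.45 ± 0.82 and 6.80 ± 1.23 and Nr3c2 at 5.14 ± 0.21 and 5.77 ± 0.54 overlapped each other. Fkbp5 at 2.90 ± 0.25 and 3.45 ± 0.12 came before Zbtb16, the lowest in trained cord at 1.23 ± 0.04, while in untrained cord Zbtb16 at 3.08 ± 0.31 overlapped Fkbp5 (SD, n = 3 in each group).

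**Figure D3:**
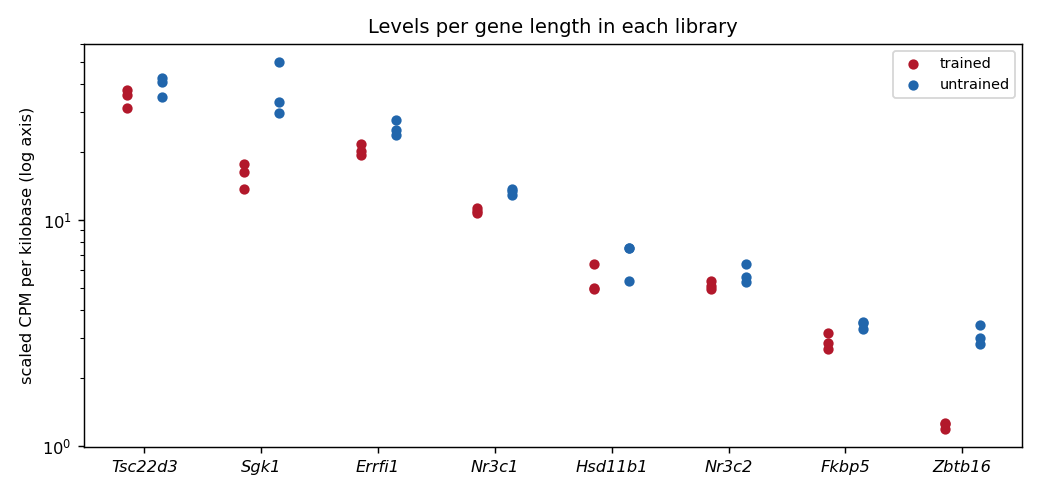
Scaled CPM per kilobase of gene length (log axis) of the 8 genes in each library, ordered by the mean over all 6, with trained points left of untrained ones. Sgk1 lies below Errfi1 in trained and above it in untrained cord, at 16.0 against 20.5 and at 37.8 against 25.5 CPM per kb on average.

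Of 26 further genes that glucocorticoids induce, 25 were tested, of which 1 fell (Dusp1) and 24 did not pass. Of all genes tested, 0.0532% fell. Among the 25, 18 had a negative log2 fold change, against 52.0% of all genes. The groups did not overlap in 6 of the 25, all lower in trained cord, which held for 8.69% of all genes. The median log2 fold change of the 25 was -0.14. This median was -0.31 to -0.12 with 1 library left out, lowest without trained replicate 2 and highest without trained replicate 1. It was -0.28 in limma-voom, -0.14 in DESeq2 and -0.12 with upper-quartile scaling. Dusp1, a phosphatase that inactivates MAP kinases, had 25.1, 23.3 and 25.3 CPM in trained cord and 69.8, 54.6 and 73.9 CPM in untrained cord. Every trained library lay below every untrained one, at a log2 fold change of -1.43 ± 0.11 (edgeR adjusted p = 0.000149). Klf9, Per1, Nfkbia and Mt1, none of which passed, were chosen after their values were seen. Klf9, a Kruppel-like transcription factor gene induced by corticosterone in brain, was at 78.3, 77.6 and 69.9 CPM in trained cord, against 97.2, 93.1 and 94.3 CPM in untrained cord, at -0.33 ± 0.07. Per1, a clock gene with a direct glucocorticoid response, was at 38.6, 40.1 and 47.5 CPM in trained cord, against 68.9, 65.3 and 49.0 CPM in untrained cord, at -0.54 ± 0.13. The groups of both genes stood apart, and the edgeR adjusted p was 0.160 for Klf9 and 0.264 for Per1. Nfkbia, the inhibitor of NF-kB, had -0.62 ± 0.20 and overlapping groups (adjusted p = 0.388). Klf9, Per1 and Nfkbia passed in DESeq2 (adjusted p = 0.0376, 0.0151 and 0.0292) and in edgeR with no filter on low counts, and Per1 also in edgeR without untrained replicate 3 (-0.68, adjusted p = 0.0411). The metallothionein gene Mt1, also a classic target, was at 948 ± 190 CPM in trained cord, against 944 ± 13.9 CPM in untrained cord.

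Genes that glucocorticoids repress were read in the same fit, several of them at low levels. The part of glucocorticoids in their values was not tested. Of 13, 10 were tested and 0 passed in edgeR, DESeq2 or limma-voom. In edgeR 1 was lower at an unadjusted p below 0.05, against 5.55% of all genes. The median log2 fold change of the 10 was -0.27, and 9 of 10 were negative, against 52.0% of all genes. With 1 library left out the median was -0.54 to -0.19, lowest without trained replicate 3 and highest without untrained replicate 1. Vcam1, an adhesion molecule gene of activated endothelium, was at 28.8, 32.9 and 42.1 CPM in trained cord, against 46.0, 40.6 and 39.9 CPM in untrained cord, at -0.29 ± 0.13 (edgeR adjusted p = 0.493). It passed without trained replicate 3, at -0.44 (edgeR adjusted p = 0.0431). The cytokine gene Il1b was low in all libraries, at 0.501 ± 0.211 CPM in trained cord, against 0.993 ± 0.427 CPM in untrained cord, and Il6, Sele and Csf2 were too low to be tested.

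Hormone supply and handling was represented by 10 genes, of which 5 were tested. None passed in edgeR, DESeq2 or limma-voom, and 2 were lower at an unadjusted p below 0.05 in edgeR, against 5.55% of all genes. All 5 had negative log2 fold changes, against 52.0% of all genes. Their median was -0.28, or -0.36 to -0.18 with 1 library left out. H6pd, which makes the cofactor that Hsd11b1 needs for activation, was at 8.75, 11.9 and 12.5 CPM in trained cord, against 14.97, 12.9 and 14.4 CPM in untrained cord, without overlap (log2 fold change -0.36 ± 0.15, edgeR adjusted p = 0.460). Abcb1a, an efflux pump gene of the blood-brain barrier that exports steroids, was at 62.4, 75.3 and 65.0 CPM in trained cord, against 93.6, 73.9 and 77.9 CPM in untrained cord, with 1 trained library above the lowest untrained one (-0.28 ± 0.10, edgeR adjusted p = 0.388). Hsd11b2, the inactivating enzyme gene, had at most 0.247 CPM in trained and 0.447 CPM in untrained libraries and was not tested. The adrenal enzyme genes Cyp11b1, Cyp11b2 and Cyp21a1 were at or below 0.0774 CPM in trained and 0.128 CPM in untrained libraries, under the floor.

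The 12 chaperone and cochaperone genes of the receptor complex differed little. None passed in edgeR, 0 had an unadjusted p below 0.05, DESeq2 and limma-voom called 0, and the median log2 fold change was 0.02, or 0.01 to 0.08 with 1 library left out, highest without trained replicate 3. The range was narrow, from -0.12 to 0.12. Bag1, a cochaperone that can inhibit the receptor, was at 145 ± 6.93 CPM in trained cord, against 134 ± 5.48 CPM in untrained cord, and Ppp5c, a phosphatase of the complex, at 107 ± 3.28 and 99.6 ± 3.31 CPM. Fkbp4, the immunophilin that competes with Fkbp5 for the complex, was chosen after its value was seen and lay at 0.07 ± 0.08 (edgeR adjusted p = 0.817).

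Among 10 coregulators of nuclear receptors 0 passed in edgeR, DESeq2 or limma-voom. In edgeR 1 was lower at an unadjusted p below 0.05, against 5.55% of all genes. Negative log2 fold changes were found in 9 of the 10, and 3 were lower without overlap, against 52.0% and 8.69% of all genes. The median log2 fold change was -0.09, or -0.12 to -0.05 with 1 library left out, highest without untrained replicate 1. Nrip1, a corepressor gene that steroid hormones induce, was at 28.2, 30.9 and 27.9 CPM in trained cord, against 36.2, 37.8 and 38.4 CPM in untrained cord. The groups did not overlap, at a log2 fold change of -0.37 ± 0.08 (edgeR adjusted p = 0.207), and it passed with no filter on low counts (adjusted p = 0.0328). Crebbp, an acetyltransferase coactivator gene, lay at -0.15 ± 0.08 (edgeR adjusted p = 0.568).

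Several glucocorticoid targets are early response genes as well, transcribed within a short time of many stimuli, and 18 such genes were read beside them. Of these 4 fell (Apold1, Klf4, Btg2 and Sik1), 1 rose (Arc) and 13 did not pass, with a median log2 fold change of -0.59 and 16 of 18 negative. Over all genes tested 0.0532% fell, 0.00591% rose and 52.0% had a negative value. The list was chosen with earlier results of these data known. Its counts beside these shares are therefore descriptions and not evidence of an excess. Apold1, an endothelial early response gene, lay at -3.07 ± 0.26 and the antiproliferative gene Btg2 at -1.38 ± 0.11 (edgeR adjusted p = 0.0471 and 0.000149). Btg2 passed in 13 of 13 other settings, whereas Apold1 passed in 5, with log2 fold changes of -3.27 to -2.83 and adjusted p-values of up to 0.321. Klf4, a zinc finger factor gene, lay at -1.44 ± 0.17 and the kinase gene Sik1 at -0.98 ± 0.13, with Arc, a synaptic activity gene, at 0.76 ± 0.10 (edgeR adjusted p = 0.00968 for each). Without trained replicate 2 the count past the test was 1 (Btg2), and with the replicate block it was 2 (Btg2 and Sik1). All 7 endothelial markers had negative log2 fold changes, 3 of them without overlap of the groups, against 8.69% of all genes lower without overlap. The 6 microglial and the 6 pericyte and smooth muscle markers were all negative too, Cx3cr1 alone without overlap. Median log2 fold changes were -0.18 for endothelial, -0.19 for microglial and -0.21 for pericyte and smooth muscle markers. Those of neuron and oligodendrocyte markers were -0.0039 and 0.046, and that of neutrophil markers 1.46. The part of these markers in the values above was not tested.

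**Figure D4:**
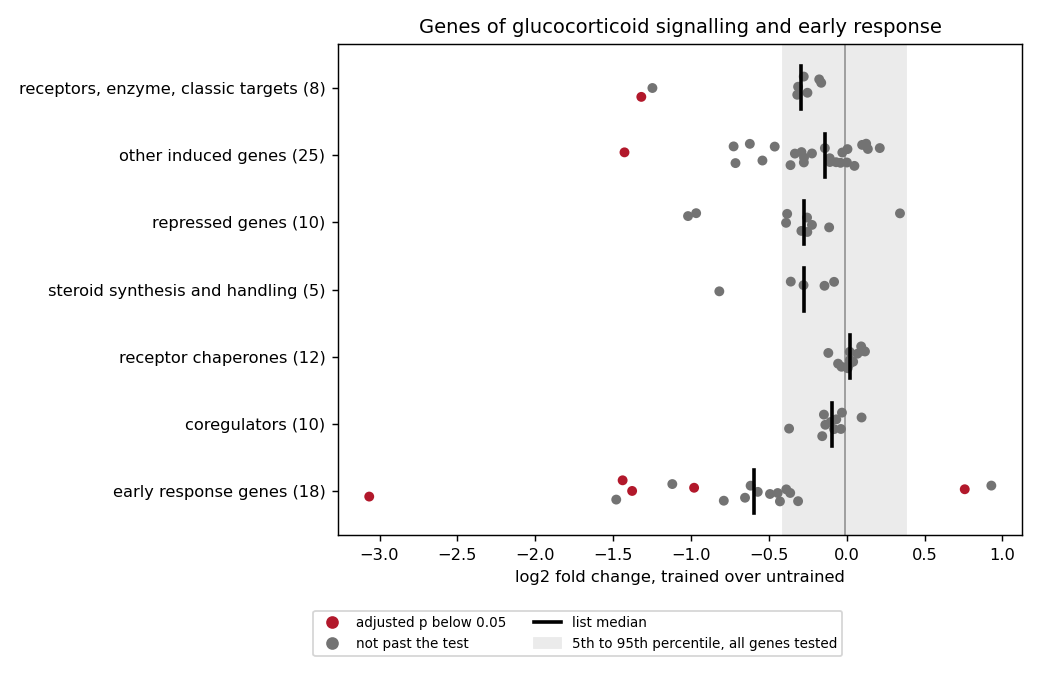
Log2 fold changes (trained over untrained) of the tested genes in each list, with the number of genes in brackets, red points past the test and black bars at list medians. The medians are -0.29 for the receptors, enzyme and classic targets, 0.02 for the chaperones and -0.59 for the early response genes, and the grey band spans -0.41 to 0.38, the 5th to 95th percentile of all genes tested.

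The genes whose levels followed those of 3 targets most closely were found by the root mean square difference of log2 CPM, centred on each gene's mean, over the 6 libraries and 15653 genes of at least 1 CPM. Nearest to Zbtb16 were Dusp1 (0.14), the mitochondrial tRNA gene mt-Tl1 (0.14) and Btg2 (0.14). Reads that reach into neighbouring genes make counts of so short a gene as mt-Tl1 uncertain. Nearest to Sgk1 were Klf4 (0.13), the AP-1 related factor gene Maff (0.18) and Sik1 (0.19). Klf4 had 8.60, 10.8 and 10.5 CPM in trained cord, against 34.4, 23.4 and 22.7 CPM in untrained cord, with its highest value in untrained replicate 1 as in Sgk1. Nearest to Fkbp5 were the transcription factor genes Zfp148 (0.03), Foxj2 (0.03) and Klf15 (0.03), the last of them itself a glucocorticoid target of the list above. Klf15 was at 21.6, 26.2 and 23.3 CPM in trained cord, against 29.7, 28.1 and 28.2 CPM in untrained cord, with trained replicate 2 the highest of its group in both genes. With 6 libraries in 2 groups these likenesses include the group difference itself and are descriptions.

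**Figure D5:**
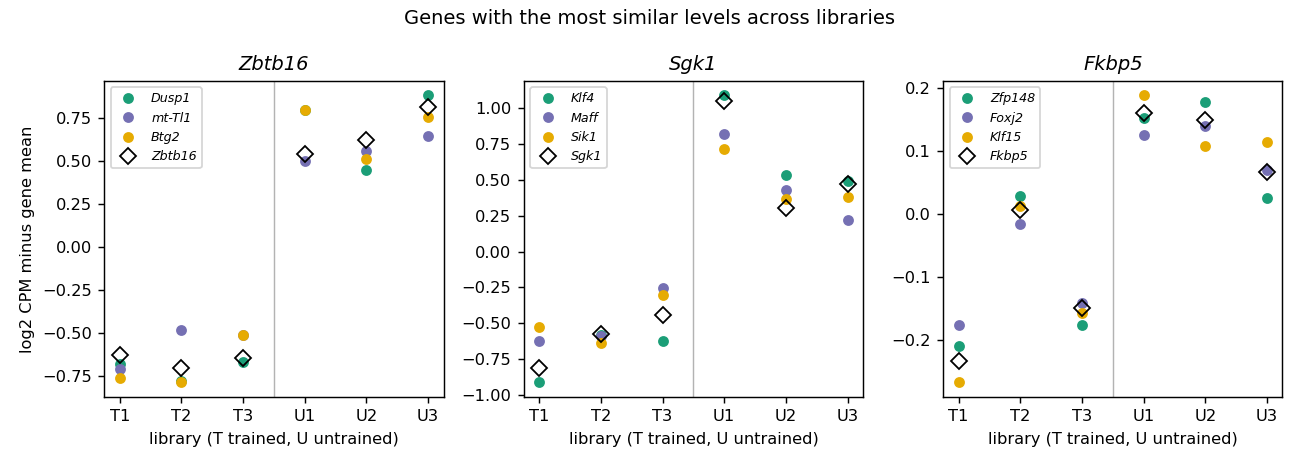
Log2 CPM minus each gene's mean over the 6 libraries for Zbtb16, Sgk1 and Fkbp5 (open diamonds) and the 3 genes nearest to each (filled circles), with trained libraries left of the line. The circles follow the diamonds within 0.13 to 0.19 on average (root mean square) for Sgk1 and within 0.03 for Fkbp5.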

How the data were processed

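Per the labels' protocols, total RNA was isolated with TRIzol and read from both ends on a NovaSeq instrument. The authors deposited raw read counts per Ensembl gene, alongside gene coordinates and lengths. Bowtie 0.12.2 and older mouse builds appear in the submitters' processing notes without a role. How reads were counted, and whether by strand, is not given in the sources used. Of 54409 gene IDs found in GENCODE M21 (GRCm38), 98.3% had the same chromosome, start and end, and positions are as the table prints them, 1-based.

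Counts were tested over the whole table with edgeR 4.0.16 (R 4.3.3), using TMM factors, the filterByExpr filter and a robust quasi-likelihood fit with group as the only term and Benjamini-Hochberg adjustment. SEs are the log2 fold change divided by the square root of F, and 95% intervals use the fitted degrees of freedom. The common biological coefficient of variation was 0.122. The step was tested on simulated counts. As alternatives, DESeq2 1.42.0 and limma-voom (limma 3.58.1) were run, besides RLE or upper-quartile factors, 2 other filters, a replicate block and leaving out each library.

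The 8 genes and the lists were chosen with earlier results of these data known. Named from each list were the genes past the test, or else the 2 of smallest p; others named were chosen after their values were seen, and a few genes that the rule names are not reported here. Intervals and floors cover the spread of these samples or counting error only.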

Additional observations from a re-analysis of the deposited data

How the results depend on the processing

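The log2 fold changes of the 8 genes were negative in each of 13 refits, 104 values in all, and 100 of these left the side of the threshold as it was. The refits reuse the same 6 libraries and are not independent of each other. The 4 exceptions now passed: Sgk1 in DESeq2 (-1.24) and without untrained replicate 1, and Errfi1 with no filter on low counts (-0.31) and without trained replicate 3. Leaving out 1 library gave -1.39 to -0.98 for Sgk1 and -0.36 to -0.25 for Errfi1. The number of the 8 past the test was 2 in DESeq2 and with no filter, and 1 to 2 with 1 library left out. The number lower without overlap, examined after seeing the data, was 5 to 7 with 1 library left out, against 12.4% to 15.2% of all genes.

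Over all genes 90 passed in DESeq2 (36 higher, 54 lower), 276 with no filter (119 higher, 157 lower) and 5 with the replicate block (0 higher, 5 lower). With 1 library left out it was 4 to 221 (0 to 73 higher, 4 to 148 lower), with 4 genes without trained replicate 2, 21 without trained replicate 1 and 221 without trained replicate 3. Of the other induced genes 4 passed in DESeq2 and with no filter, and 1 to 2 with 1 library left out. Of the repressed genes 0 to 1 passed with 1 library left out, and of the coregulators 1 with no filter. Of the early response genes 12 passed with no filter, 2 with the replicate block and 1 to 7 with 1 library left out. The cause of these shifts was not tested.

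Same-numbered libraries did not deviate together (r from -0.278 to -0.0731 over 3 pairs), and none correlated best with its own number. With 3 libraries per group this cannot show whether the numbers pair the samples. With the replicate block Zbtb16 stayed past the test (edgeR adjusted p = 0.0192) and no other of the 8 genes passed. Upper-quartile scaling moved the median of all genes to 0.017. The unadjusted 95% intervals of Nr3c2, Tsc22d3 and Hsd11b1 included 0, and the median SE over all genes tested was 0.122 on the log2 scale.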

Other observations

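Relatives and partners of the targets were read in the same fit, and 0 of 32 tested genes in these lists passed in edgeR (3 at an unadjusted p below 0.05, and 0 in DESeq2 or limma-voom). Among the kinase genes related to Sgk1 and their substrates, Foxo1, a transcription factor gene whose protein SGK kinases inactivate, was at 24.0, 25.1 and 25.2 CPM in trained cord, against 34.8, 25.5 and 30.4 CPM in untrained cord. The groups did not overlap, although the nearest values were 25.2 and 25.5 CPM, at a log2 fold change of -0.29 ± 0.11 (edgeR adjusted p = 0.419). Nedd4l, a ubiquitin ligase gene whose protein SGK1 phosphorylates, was higher without overlap, at 50.1 ± 0.756 CPM in trained cord, against 44.6 ± 0.604 CPM in untrained cord (0.17 ± 0.07, edgeR adjusted p = 0.462). Of all genes tested, 8.69% were lower and 8.13% higher without overlap. Of the EGF receptor family, which Errfi1 inhibits, Erbb4 was at 41.1 ± 1.98 and 47.7 ± 2.97 CPM (-0.21 ± 0.08, edgeR adjusted p = 0.398) and Erbb3 at 41.5 ± 4.06 and 46.6 ± 1.93 CPM in trained and untrained cord.

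Over the other 3 TSC22 domain genes the median log2 fold change was -0.04 (-0.09 to -0.0089 with 1 library left out, lowest without untrained replicate 2 and highest without untrained replicate 1), with Tsc22d2 at -0.13 ± 0.08 and Tsc22d1 at -0.04 ± 0.07. Of 12 tested relatives of Fkbp5, Fkbp14 lay at -0.27 ± 0.13 and Fkbp2 at 0.14 ± 0.07, with a median of -0.07, which was -0.11 to 0.08 with 1 library left out and above 0 only without trained replicate 1. Of the sex steroid receptors, the estrogen receptor gene Esr1 was at 8.86 ± 1.68 CPM in trained cord, against 7.69 ± 1.42 CPM in untrained cord. Of the aldosterone-responsive transport genes, Scnn1a, a sodium channel subunit gene, was at 3.69 ± 0.764 CPM in trained cord and at 4.49 ± 0.376 CPM in untrained cord. The sodium channel subunit genes Scnn1b and Scnn1g were too low to be tested (SD, n = 3 in each group).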
